A study of Mus musculus with 24 samples.

Results

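The genes described here are 45 that cells need to copy and divide their DNA: 20 replication genes, from Mcm2 to Rrm2, and 25 mitotic genes, from Mki67 to Pclaf. They were taken from a list by symbol, although earlier results of these data were known when the list was chosen. They make up 45 of the 39179 genes in each count file. The study measured RNA from dissected mouse gut in 24 libraries, 3 in each of 8 groups, to ask what loss of the intestinal transcription factor Cdx2 and a mutant Apc allele do to the gut. Untreated mice gave WT cecum, WT stomach and Cdx2+/- cecum. Cdx2-/- cecum (genotype Cdx2f/f::AhCreERT) came from mice treated with tamoxifen and bnaphthoflavone (β-naphthoflavone), which switch on a Cre recombinase driven by the Cyp1a1 (Ah) promoter. Its libraries form 2 groups, called set 1 (replicates 1 to 3) and set 2 (replicates 4 to 6), because their library codes differ. The cecum and ileum groups labelled Cdx2-/-;Apc+/- (Cdx2f/f::AhCreERT::ApcD14/+) had the same treatment and are called compound mutant here. Apc+/- ileum came from untreated mice, and its labels conflict: replicates 1 and 3 carry the genotype entry with floxed Cdx2 and Cre, while their description says the Cdx2 allele is not floxed. Treatment and Cdx2 genotype cannot be told apart in the Cdx2-/- and compound mutant groups, and the sources used here give no age for the animals.

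Levels are in CPM, the reads of a gene relative to the TMM-scaled library size. Depth was 36567685 to 87975179 gene reads per library, and the least covered member in any library had 92 reads. No label ties replicates to separate animals. The p-values therefore reflect spread among these samples only, and that spread may be technical. Set 1 replicates 2 and 3 were the most alike pair of all (chi-square per degree of freedom 7.03, against 53 or more in every other pair within a group). Set 1 had high Xist (666 to 816 CPM) and almost no Y-linked Ddx3y (at most 0.25 CPM), while the other 7 groups had the reverse, so sex differs between set 1 and all other groups. The targeted gene Cdx2 was at 408 to 663 CPM in WT cecum, 130 to 349 CPM in Cdx2-/- cecum, 116 to 118 CPM in Cdx2+/- cecum and 122 to 151 CPM in compound mutant cecum. The library labelled Cdx2-/-;Apc+/- ileum replicate 2 had 178 CPM of Cdx2, above the 63.3 to 112 CPM of Apc+/- ileum. Its total Cdx2 level thus goes against its label. Cdx2 in Cdx2+/- cecum was under every Cdx2-/- cecum library, so the order of total Cdx2 in these groups also goes against their labels. These counts do not separate intact from recombined Cdx2 alleles, so they cannot decide whether a label is wrong. The names Cdx2+/- and Cdx2-/- are used here as labels only. Apc does not check the Apc labels, since these counts do not separate the alleles: it was at 172 to 186 CPM in compound mutant cecum, above all Cdx2-/- cecum libraries (99.0 to 156 CPM). Of the tissue markers, the gastric pump subunit Atp4b was at 2293 to 4790 CPM in stomach and at most 38.0 CPM elsewhere, and the intestinal cadherin Cdh17 at 1434 to 2220 CPM in WT cecum. Fabp6, the bile acid carrier of the ileum, did not follow the labels throughout. It was at 78.4 to 243 CPM in Apc+/- ileum and at 2015 CPM in compound mutant ileum replicate 2, but at 17.9 and 1.34 CPM in replicates 1 and 3. In Cdx2+/- cecum it was at 15.3 to 152 CPM and in set 2 replicate 4 at 60.9 CPM, against at most 0.43 CPM in WT cecum. WT cecum replicate 3 stood apart from the other two WT libraries, with lower pan-epithelial markers (12 genes, summed 14382 CPM against 21327 and 23545) and higher smooth muscle markers (10 genes, 4105 CPM against 1235 and 2161). Results that rest on it are given with and without it.

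In the gut, division is confined mostly to progenitor cells in the crypts, and their daughters stop dividing as they differentiate. Before DNA is copied, the origin loaders Cdc6 and Cdt1 place the ring of Mcm2 to Mcm7 on DNA, and Cdc45 and the GINS proteins turn it into a working helicase. Polymerases, the sliding clamp Pcna and the ribonucleotide reductase Rrm1 and Rrm2 then build new strands. In mitosis Cdk1 with its cyclins starts the process, Aurora and polo kinases and kinesin motors build and run the spindle, and the ubiquitin ligase activator Cdc20 ends it. Replication genes are known targets of E2F factors, released from pocket proteins such as Rb1, and many mitotic genes are known targets of the DREAM and Foxm1-Mybl2 complexes, which act through a CHR element (TTTGAA).

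The promoters of the 2 phases differed in these letters. RefSeq promoter windows (GRCm38.p6, 250 bases before to 50 after the start) were found for 36 of the 45 genes. An E2F word (TTTGGCGC, TTTGCCGC, TTTCGCGC or TTTCCCGC, either strand) was present in 8 of 16 replication promoters and 2 of 20 mitotic promoters, against 2.6% of the 27025 genes in the table. TTTGAA on either strand was in 2 of 16 replication promoters and 14 of 20 mitotic promoters, against 20.2% of all genes. CCAAT, the word bound by NF-Y, was in 13 of 16 and 17 of 20, against 41.1%. The E2F words can overlap each other, and a match is a description of the letters and no evidence of binding. Shown here are 2 replication and 3 mitotic promoters, each the 160 bases before the RefSeq start, 5′ to 3′ on the gene's own strand, with matches to the 3 kinds of word in capitals (TTTGAA read on the other strand is TTCAAA, and CCAAT is ATTGG). None of these stretches overlaps an exon in the GENCODE annotation of the same build. They are chr8:75109349-75109508 (plus strand, Mcm5), chr1:128359706-128359865 (minus, Mcm6), chr19:37376222-37376381 (plus, Kif11), chr11:99024190-99024349 (minus, Top2a) and chr7:135716380-135716539 (minus, Mki67).
Mcm5: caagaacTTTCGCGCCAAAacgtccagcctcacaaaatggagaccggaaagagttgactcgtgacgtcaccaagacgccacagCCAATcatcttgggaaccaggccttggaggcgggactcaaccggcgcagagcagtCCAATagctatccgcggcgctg
Mcm6: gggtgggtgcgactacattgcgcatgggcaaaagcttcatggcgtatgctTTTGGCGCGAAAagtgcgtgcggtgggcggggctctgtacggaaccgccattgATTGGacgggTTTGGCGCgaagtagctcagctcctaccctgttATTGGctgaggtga
Kif11: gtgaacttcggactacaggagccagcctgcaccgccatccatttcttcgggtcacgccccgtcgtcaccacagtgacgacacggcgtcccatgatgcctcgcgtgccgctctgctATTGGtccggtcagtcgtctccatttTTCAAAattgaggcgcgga
Top2a: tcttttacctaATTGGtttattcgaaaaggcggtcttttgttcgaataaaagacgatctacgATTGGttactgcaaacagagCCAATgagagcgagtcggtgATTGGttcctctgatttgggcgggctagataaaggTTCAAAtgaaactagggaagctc
Mki67: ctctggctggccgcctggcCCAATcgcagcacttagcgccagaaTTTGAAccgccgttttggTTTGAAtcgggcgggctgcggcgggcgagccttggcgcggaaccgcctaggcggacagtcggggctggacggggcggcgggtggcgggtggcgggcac

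Across the 8 groups the members were lowest in WT cecum and highest in Apc+/- ileum. WT cecum had the lowest group mean for 16 of 20 replication genes and 17 of 25 mitotic genes, and Apc+/- ileum the highest for 19 of 20 and 20 of 25. The mean log2 CPM over the replication genes was 3.46, 3.23 and 4.16 in the 3 WT cecum libraries. It was 4.49 to 4.63 in Cdx2+/- cecum, 4.66 to 4.93 in Cdx2-/- set 1, 4.43 to 4.91 in set 2, 4.02 to 4.36 in compound mutant cecum, 4.30 to 4.41 in WT stomach, 4.78 to 5.15 in compound mutant ileum and 5.31 to 5.75 in Apc+/- ileum. WT cecum replicate 3 thus lay inside the range of compound mutant cecum, while the other two WT libraries lay under all other groups. The mean over the mitotic genes had a like order (4.01, 3.52 and 4.60 in WT cecum, 5.41 to 5.89 in Apc+/- ileum). The gap between the phases (mitotic mean minus replication mean, log2) was 0.43 ± 0.13 (SD, n = 3) in WT cecum, 0.46 ± 0.07 in set 1 and 0.43 ± 0.18 in set 2, but 0.11 ± 0.03 in Apc+/- ileum and 0.05 ± 0.05 in compound mutant ileum. It was 0.28 ± 0.06 in Cdx2+/- cecum, 0.32 ± 0.10 in stomach and 0.25 ± 0.16 in compound mutant cecum. The ileum libraries, between -0.004 and 0.14, lay under all others except compound mutant cecum replicate 3 (0.12). In bulk tissue, fewer dividing cells and less RNA per dividing cell cannot be told apart.

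**Figure D1:**
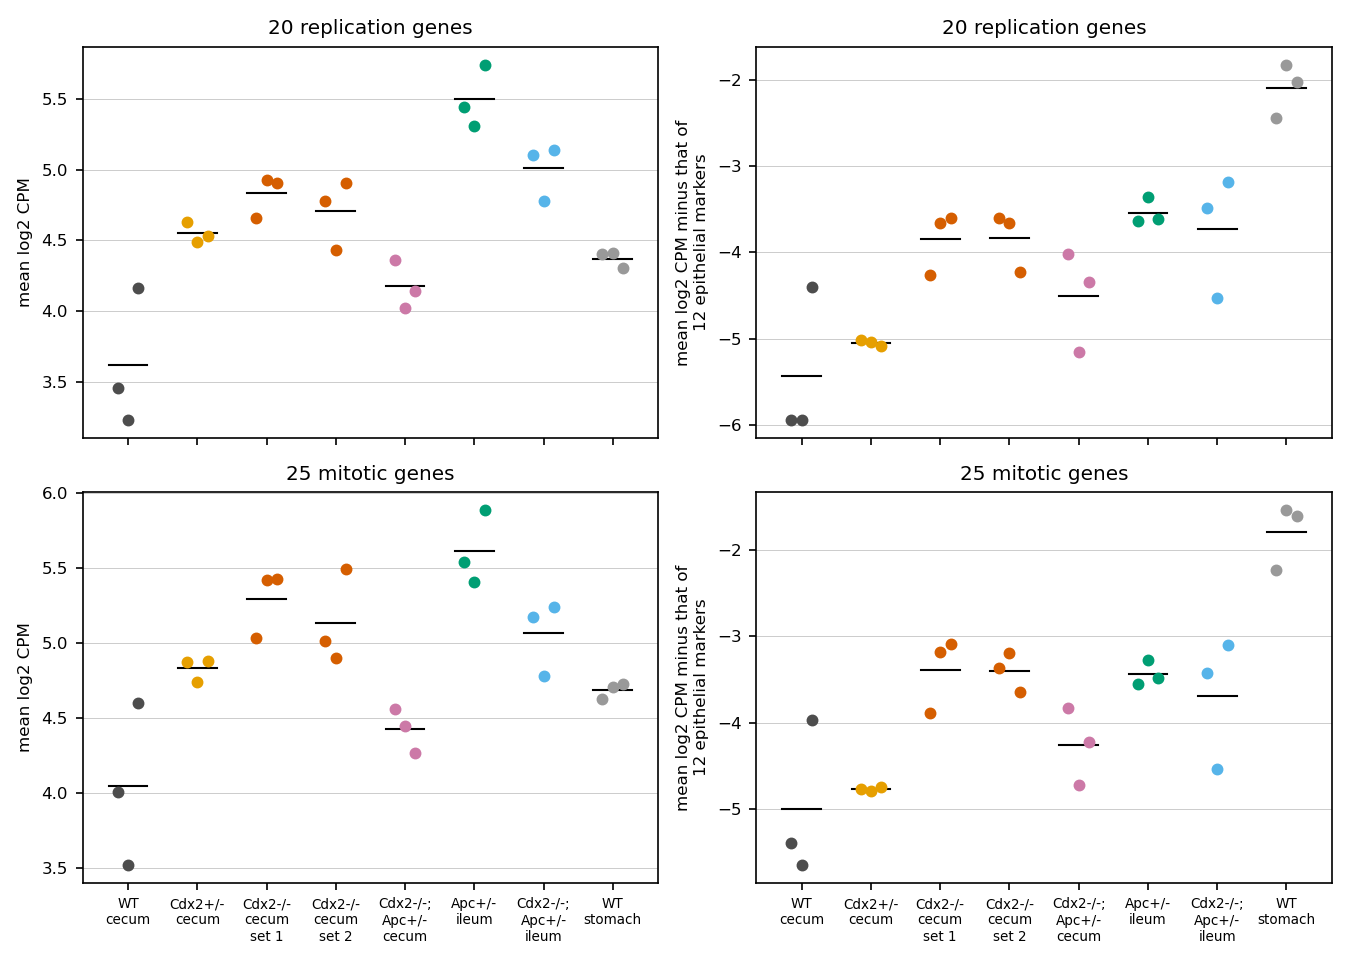
Mean log2 CPM of the 20 replication genes (top) and 25 mitotic genes (bottom) in each of the 24 libraries (points, bars are group means), as such on the left and minus the mean log2 CPM of 12 epithelial marker genes on the right. On the left 2 WT cecum libraries (3.46 and 3.23 for replication) lie under all others. The Apc+/- ileum libraries lie highest there for replication, but for mitosis they overlap Cdx2-/- cecum. On the right WT stomach lies highest, and 10 of the 12 markers are above 1 CPM in all its libraries.

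Per kilobase of annotated exon, Plk1 was the most abundant member over all libraries (mean 49.4 CPM per kb), followed by Pcna (27.4), Mki67 (19.2) and Top2a (18.5), and Pola1 (1.85 CPM per kb) was the least. In WT cecum the order of the first pair was the reverse, with Pcna at 22.1 ± 1.70 and Plk1 at 16.4 ± 5.75 CPM per kb (SD, n = 3). These values divide by all annotated exon bases of a gene, which can exceed its longest transcript. For Top2a these were 9013 and 5221 bases, and for Plk1 2199 in both, so the order of members depends on the length used. Plk1 encodes the polo kinase that drives mitotic entry and spindle assembly. Its order of levels also differed from that of the other members: compound mutant cecum had the highest mean (162 CPM) of the 8 groups for Plk1 alone.

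In Cdx2-/- cecum against WT cecum, replication genes rose as a block. Of 20, 19 were higher and none lower by edgeR's quasi-likelihood test (adjusted p under 0.05 over the 20502 genes tested), with a median log2 fold change of 1.15. Over all genes tested, 26.9% were higher and 26.2% lower, with a median of 0.04. Without WT cecum replicate 3 the count was 20 of 20 and the median 1.42.

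All 9 helicase genes rose. Mcm6, a subunit of the helicase ring (ENSMUSG00000026355, GRCm38 chromosome 1, minus strand, 128331590 to 128359664), had 16.3, 13.7 and 44.5 CPM in WT cecum and 59.9 to 83.5 CPM (median 77.8, n = 6) in Cdx2-/- cecum. The groups did not overlap, and the difference was 1.59 ± 0.29 (log2 ± SE, adjusted p = 0.000132, edgeR). Mcm3 rose by 1.62 ± 0.23, Mcm5 by 1.34 ± 0.26 and Mcm4 by 1.23 ± 0.20. Gins1 rose least of the helicase genes, by 0.81 ± 0.22.

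Among the origin loaders Cdc6 and Cdt1 and the initiator Mcm10, grouped together here, 2 of 3 rose. The replication initiator Mcm10 (ENSMUSG00000026669, chromosome 2, minus strand, 4989714 to 5012791) had 13.7, 13.0 and 11.8 CPM in WT cecum and 15.5 to 28.6 CPM (median 19.4) in Cdx2-/- cecum. Its groups did not overlap and it rose by 0.65 ± 0.16 (adjusted p = 0.00197, edgeR). Unlike Mcm6, it was not high in WT cecum replicate 3. The loader Cdc6 rose by 1.13 ± 0.25, and Cdt1, which differed by 0.31 ± 0.22 (adjusted p = 0.251, edgeR), did not pass.

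All 5 genes of DNA synthesis rose, with the widest spread of the 4 replication roles. Pole, the catalytic subunit of the leading-strand polymerase (ENSMUSG00000007080, chromosome 5, plus strand, 110286306 to 110337474), had 4.21, 2.70 and 10.9 CPM in WT cecum and 16.4 to 35.6 CPM (median 25.5) in Cdx2-/- cecum. This was the largest change of the 45 genes, 2.12 ± 0.34 (adjusted p = 3.73e-05, edgeR), with no overlap. Pcna, the sliding clamp (ENSMUSG00000027342, chromosome 2, minus strand, 132249162 to 132253314), had 49.0, 53.2 and 57.2 CPM in WT cecum and 46.0 to 90.2 CPM (median 77.0) in Cdx2-/- cecum. Its groups overlapped and its change was the smallest called, 0.40 ± 0.14 (adjusted p = 0.0192, edgeR). It was not called without WT cecum replicate 1 (0.35) or replicate 2 (0.41), and Pcna can share reads with its pseudogenes Pcna-ps1 and Pcna-ps2. All 3 genes of nucleotide supply rose. Rrm1, the large subunit of ribonucleotide reductase (ENSMUSG00000030978, chromosome 7, plus strand, 102441695 to 102469771), had 29.3, 23.5 and 45 CPM in WT cecum and 68.4 to 100.2 CPM (median 85.4) in Cdx2-/- cecum, a rise of 1.35 ± 0.19 without overlap. Rrm2 rose by 0.88 ± 0.21 and the thymidylate synthase Tyms by 0.54 ± 0.14.

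The mitotic genes moved the same way: 23 of 25 were higher and none lower, with a median of 1.10 (22 of 25 and a median of 1.52 without WT cecum replicate 3). All 7 kinase genes rose. Plk1 (ENSMUSG00000030867, chromosome 7, plus strand, 122159439 to 122169873) had 34.6, 24.1 and 49.3 CPM in WT cecum and 130 to 177 CPM (median 146) in Cdx2-/- cecum. The lowest mutant library was more than 2-fold above the highest WT library, and the difference was 2.05 ± 0.18 (adjusted p = 4.41e-08, edgeR). Cdk1, the kinase that starts mitosis, and the checkpoint kinase Bub1 each rose by 1.32, and the Aurora kinase Aurka by 0.81 ± 0.19.

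All 5 genes of cyclins and of the ubiquitin ligase rose. Cyclin A2 (Ccna2, ENSMUSG00000027715, chromosome 3, minus strand, 36564865 to 36572150) had 29.2, 18.9 and 37.2 CPM in WT cecum and 37.7 to 68.9 CPM (median 59.1) in Cdx2-/- cecum. It rose by 0.97 ± 0.21 (adjusted p = 0.000575, edgeR), with the lowest mutant library just above the highest WT library. Ube2c, the ubiquitin-conjugating enzyme of the same ligase, rose by 0.60 ± 0.21.

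All 4 motor genes rose, with the highest median of any role (1.63). Kif23, a kinesin of the central spindle needed for cytokinesis (ENSMUSG00000032254, chromosome 9, minus strand, 61915905 to 61946774), had 15.8, 10.4 and 26.3 CPM in WT cecum and 64.2 to 83.6 CPM (median 72.8) in Cdx2-/- cecum. It rose by 2.07 ± 0.27 (adjusted p = 2.96e-06, edgeR), the largest change among mitotic genes, and its groups lay far apart. Kif20a rose by 1.81 ± 0.33, but 29.3% of its exon bases overlap Cdc23 on the opposite strand. Such overlaps also occur in the helicase gene Gins2 (67.3%, with Gse1), in Ube2c (22.8%, with Tnnc2) and in Ccna2 (12.5%, with Exosc9), and smaller ones in other members. The sources used here do not say whether reads were counted by strand. Kif11, whose promoter is printed above, rose by 1.04 ± 0.25.

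Among 7 chromosome and spindle genes 6 rose. Mki67, the proliferation marker that coats mitotic chromosomes (ENSMUSG00000031004, chromosome 7, minus strand, 135689784 to 135716361), had 102, 61.8 and 153 CPM in WT cecum and 197 to 291 CPM (median 247) in Cdx2-/- cecum. It rose by 1.22 ± 0.26 (adjusted p = 0.000667, edgeR) with no overlap. The topoisomerase Top2a rose by 1.41 ± 0.24. Birc5, a subunit of the chromosomal passenger complex, had the smallest called rise (0.53 ± 0.22, adjusted p = 0.0474, edgeR), and leaving out any of 6 libraries ended that call (WT cecum replicate 2 or 3, any library of set 1, or set 2 replicate 6, with values from 0.35 to 0.56). The kinetochore gene Spc24 differed by 0.36 ± 0.20 (adjusted p = 0.146, edgeR) and did not pass.

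The remaining pair on the mitotic list parted. Ankle1, an endonuclease of late mitosis (ENSMUSG00000046295, chromosome 8, plus strand, 71406010 to 71409904), had 6.09, 4.69 and 5.85 CPM in WT cecum and 7.99 to 14.5 CPM (median 12.9) in Cdx2-/- cecum, a rise of 1.10 ± 0.21. Pclaf, a clamp-binding factor that acts in replication although it stands on the mitotic list (ENSMUSG00000040204, chromosome 9, plus strand, 65890237 to 65903266), had 33.3, 27.1 and 42.0 CPM in WT cecum and 23.8 to 41.6 CPM (median 32.1) in Cdx2-/- cecum. Its groups overlapped fully and the difference was -0.11 ± 0.16 (adjusted p = 0.588, edgeR).

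Markers of other cells moved beside these genes, and their part in the result was not tested beyond the scaling below. The summed pan-epithelial markers were at 14382 to 23545 CPM in WT cecum and 7260 to 17102 CPM in Cdx2-/- cecum. In the same order, fibroblast markers (7 genes) were at 503 to 1283 and 1478 to 2803 CPM, myeloid markers (8 genes) at 54.6 to 122 and 139 to 431 CPM, and germinal centre and B cell markers (12 genes) at 34.8 to 41.8 and 42.2 to 117 CPM. T cell markers (8 genes) were at 15.7 to 31.4 and 9.14 to 29.7 CPM, stem and progenitor markers (8 genes) at 777 to 1209 and 3624 to 12489 CPM, and squamous markers (8 genes) at 1.46 to 4.58 and 20.9 to 82.7 CPM. No marker of these lists was at 0 in all libraries of a group. With library sizes set to equal pan-epithelial marker levels, the counts were 19 of 20 and 23 of 25, and the medians 1.44 and 1.44, while the median of all genes moved by 0.40.

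**Figure D2:**
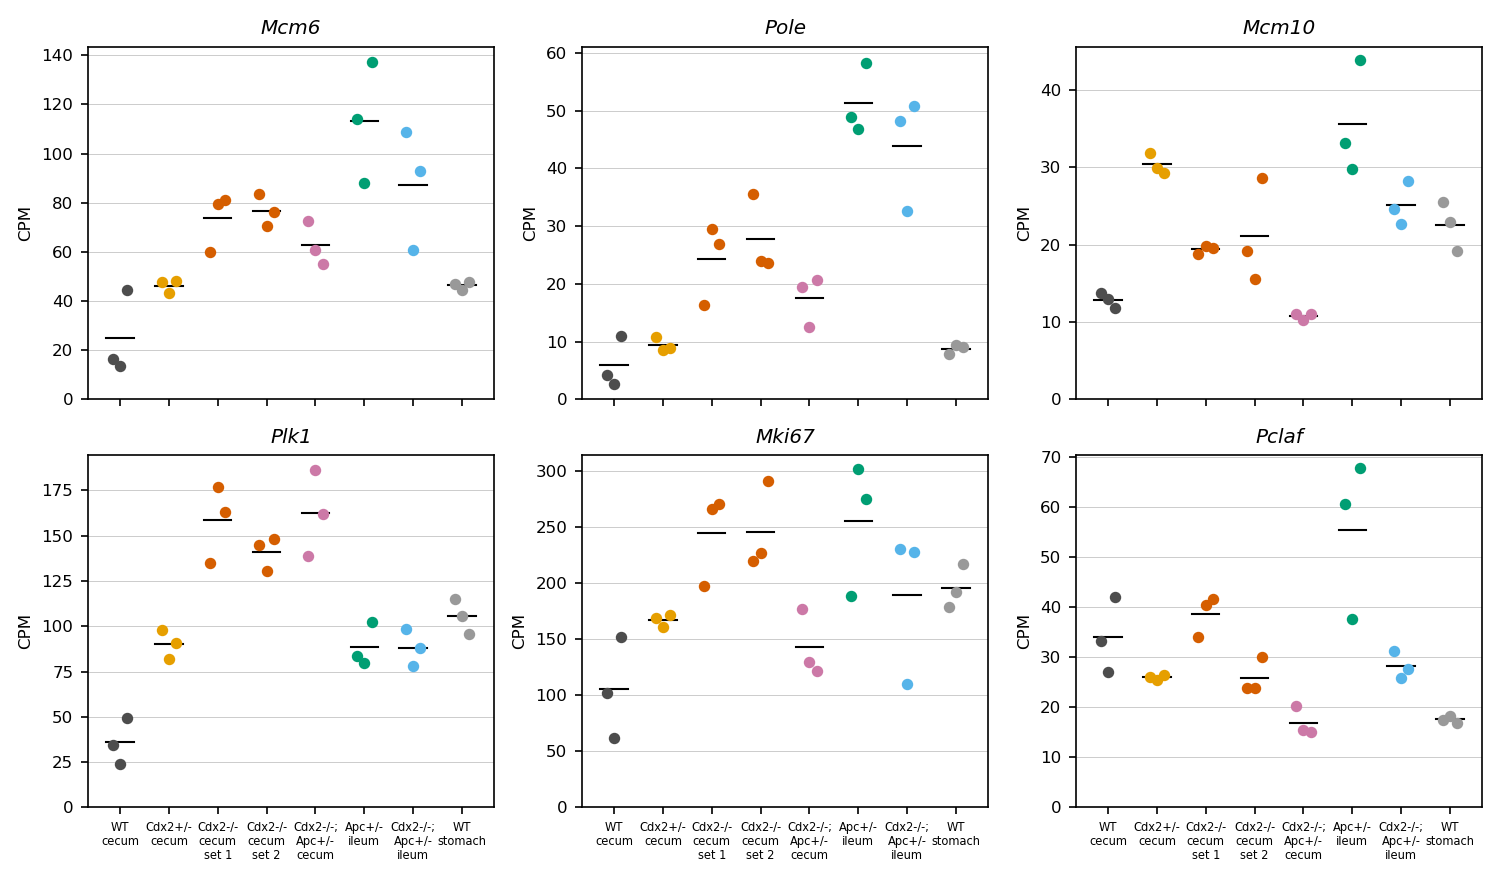
CPM of 3 replication genes (Mcm6, Pole, Mcm10) and 3 mitotic-list genes (Plk1, Mki67, Pclaf) in every library, with bars at the group means. Plk1 lies between 130 and 186 CPM in all Cdx2-/- and compound mutant cecum libraries and at 24.1 to 49.3 CPM in WT cecum, whereas Pclaf in compound mutant cecum (15.2 to 20.2 CPM) lies under WT cecum (27.1 to 42.0 CPM).

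Other genes of the same pathways were taken from lists beside the 45. Of 38 other replication genes, 25 were higher and 2 lower in Cdx2-/- than in WT cecum. The checkpoint mediator Clspn rose by 2.01, the fork protein Timeless by 1.12 and the origin subunit Orc2 by 0.89, whereas the clamp-loader subunit Rfc2 fell by 1.15. Of 51 other mitotic genes, 47 were higher and 2 lower, among them Cep55 (1.51), Dlgap5 (1.26), Prc1 (1.32) and Mad2l1 (1.30), all higher. The upstream lists did not move in 1 direction. Of 13 E2F factors and pocket proteins 5 rose and 6 fell: the atypical E2F factor E2f7 rose by 1.71, while Rb1 fell by 1.66, E2f3 by 1.49 and E2f5 by 0.80. Of 10 mitotic transcription factors 4 rose and 2 fell, with Mybl2 at 1.98 and Foxm1 at 1.31. Of 11 G1 cyclins and kinases 6 rose and 1 fell, with cyclin D1 (Ccnd1) at 1.98, cyclin D2 (Ccnd2) at 2.05, Mycn at 3.92 and Cdk4 at 0.94. Of 13 CDK inhibitors and p53 targets 3 rose and 7 fell: Gadd45a fell by 2.60, Sesn2 by 2.55 and the CDK inhibitor Cdkn1a by 1.82, and the inhibitor Cdkn2c rose by 0.89.

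The sets gave nearly the same picture when each was compared with the same WT libraries. In set 1, 19 of 20 replication genes (median 1.15) and 24 of 25 mitotic genes (median 1.21) were higher and none lower, beside 24.6% of all genes higher and 22.7% lower. In set 2, 18 of 20 (median 1.09) and 20 of 25 (median 1.16) were higher and none lower, beside 25.8% higher and 24.4% lower, and here mutant and WT libraries were all male by Xist and Ddx3y. Without WT cecum replicate 3 the counts were 20 and 24 in set 1 and 18 and 21 in set 2. Set 2 was then compared with set 1 directly. Only Pcna was called, lower in set 2 by 0.69 ± 0.16 (adjusted p = 0.0106, edgeR), beside 4.03% of all genes higher and 6.45% lower. Pcna had 90.2, 89.2 and 88.8 CPM in set 1 and 65.1, 46.0 and 54.9 CPM in set 2, without overlap. Without set 2 replicate 5 it was no longer called (-0.58, adjusted p = 0.0689, edgeR), and without set 2 replicate 6 a second replication gene was. No mitotic gene was called by edgeR, 4 were lower at an unadjusted p under 0.05, and 2 were lower by DESeq2 after adjustment. Shares of all genes for the unadjusted and DESeq2 counts are not given here, so these are not set against other genes.

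The smallest changes in Cdx2-/- cecum fell on short transcripts. Split by the longest annotated transcript, 12 of the 15 shortest members (1087 to 2696 bases) were higher, with a median of 0.81, as were 15 of 15 in the middle (2726 to 3674 bases, median 1.28) and 15 of 15 of the longest (3884 to 11130 bases, median 1.22). All 3 members not called (Cdt1, Spc24 and Pclaf) were among the shortest, although Plk1, with the second largest mitotic change, was too. Across the 45 members, the log2 fold change and transcript length had a Spearman correlation of 0.564, against -0.037 over 20200 genes of known length. Between the sets (set 2 minus set 1) these were 0.686 and 0.15. The genes share libraries and are not independent, and the sources used here give no RNA integrity values, so the part of RNA quality in this was not tested. With length and GC content entered as offsets, 18 of 20 and 21 of 25 members were higher, with medians of 1.07 and 1.06.

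**Figure D3:**
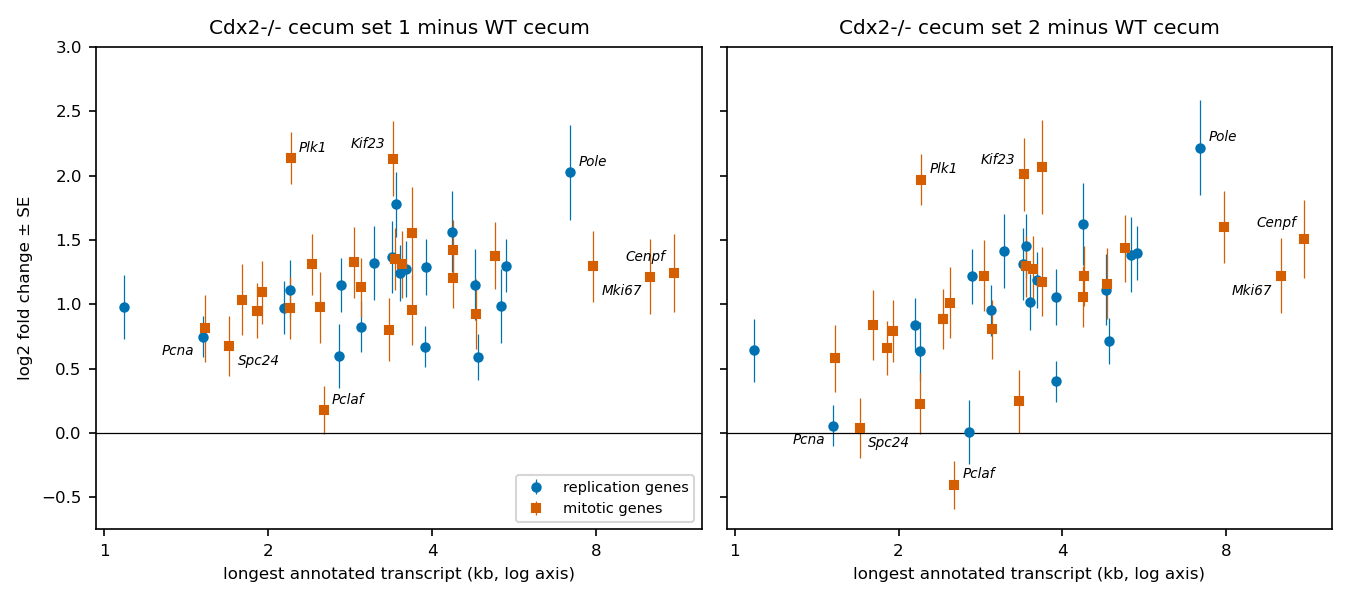
Log2 fold change ± SE of each member against WT cecum, for Cdx2-/- set 1 (left) and set 2 (right), by the length of its longest annotated transcript (log axis), with replication genes as circles and mitotic genes as squares. In set 2 Pcna, Spc24, Pclaf and Cdt1 (not labelled, 0.01) lie at or under 0.06 among the short transcripts, and Pole at 2.22 among the long ones.

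The libraries labelled Cdx2+/- cecum, whose Cdx2 level lay under that of all Cdx2-/- libraries, also had higher levels of these genes than WT cecum. In this comparison, 15 of 20 replication genes (median 0.88) and 14 of 25 mitotic genes (median 0.67) were higher and none lower, beside 17.1% of all genes higher and 17.3% lower (median -0.05). All 9 helicase genes rose, but only 1 of the 5 genes of cyclins and of the ubiquitin ligase, Cdc20. Mcm3 rose most among replication genes, from 17.0, 13.6 and 32.0 CPM to 61.8, 54.3 and 55.8 CPM (1.45 ± 0.25), and Rfc3 least (0.63 ± 0.21). Kif23 rose most among mitotic genes, to 56.4, 52.4 and 64.1 CPM (1.72 ± 0.28), and Aurkb least (0.64 ± 0.24). Mcm10 had 31.9, 29.9 and 29.3 CPM, far above WT cecum and above every Cdx2-/- library (1.24 ± 0.18, adjusted p = 4.1e-05, edgeR). Mki67, at 169, 161 and 172 CPM, lay above all WT libraries but was not called (0.67 ± 0.29, adjusted p = 0.0802, edgeR), and Pclaf, at 26.0, 25.4 and 26.5 CPM, lay under them (-0.40 ± 0.19, adjusted p = 0.110, edgeR).

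Markers of epithelium and muscle moved beside these genes in the Cdx2+/- libraries. The summed pan-epithelial markers were at 25057 to 25113 CPM, above all WT cecum libraries (14382 to 23545 CPM), and smooth muscle markers at 145 to 578 CPM, under all of them (1235 to 4105 CPM). Squamous markers were at 61.0 to 791 CPM, against 1.46 to 4.58 CPM in WT cecum. With library sizes set to equal pan-epithelial levels, no replication and no mitotic gene was higher and 1 mitotic gene was lower, with medians of 0.16 and -0.004, and the median of all genes moved by -0.61. With 7 broad epithelial genes alone, chosen after seeing the data, 1 and 1 were higher. The rise in Cdx2+/- cecum was called under TMM and DESeq2 scaling but not under these, and the counts moved with single libraries. They were 10 and 6 without WT cecum replicate 2, 19 and 19 without replicate 3, and the mitotic count was 8 without Cdx2+/- replicate 3.

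Cdx2-/- and Cdx2+/- cecum differed in fewer members, 4 of 20 replication genes higher and 1 lower and 3 of 25 mitotic genes higher, beside 19.7% of all genes higher and 20.6% lower. These counts were near or under the shares of all genes. The 4 higher replication genes were Pole (1.47 ± 0.33), Mcm6 (0.70 ± 0.28), Rfc3 (0.56 ± 0.19) and Rrm1 (0.47 ± 0.18), and the mitotic genes Cenpf (0.99 ± 0.27), Plk1 (0.73 ± 0.17) and Ankle1 (0.56 ± 0.21). Pole had 10.7, 8.55 and 8.92 CPM in Cdx2+/- cecum, no higher than WT cecum replicate 3 and under all Cdx2-/- libraries. Mcm10 was lower in Cdx2-/- cecum (-0.59 ± 0.15, adjusted p = 0.00556, edgeR). The replication count fell to 1 or 2 without any 1 of 7 libraries (set 1 replicates 2 or 3, set 2 replicates 4 or 6, or any Cdx2+/- library), and Ankle1 lost its call without any of 5. With equal pan-epithelial levels 18 of 20 and 25 of 25 were higher, the median of all genes moved by 1.02 and Mcm10 reversed to 0.39. The share of all genes called under that scaling is not given here, so these counts do not set the members apart from other genes.

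In compound mutant cecum the difference from WT cecum was smaller and less uniform. Of the replication genes 9 of 20 were higher and none lower (median 0.54), and of the mitotic genes 8 of 25 were higher and 4 lower (median 0.44), beside 26.6% of all genes higher and 26.1% lower (median 0.07). The count of higher mitotic genes was thus near the share of all genes and does not set them apart. The replication genes that rose were those of the helicase (4 of 9) and of synthesis (4 of 5) and Rrm1, with Pole at the top (19.4, 12.6 and 20.7 CPM, 1.56 ± 0.36, adjusted p = 0.00144, edgeR) and Mcm2 at the bottom (0.56 ± 0.22). Of the origin loaders and Mcm10 none passed. Plk1 had 139, 186 and 162 CPM, against 24.1 to 49.3 CPM in WT cecum, as large a difference as in Cdx2-/- cecum (2.17 ± 0.20, adjusted p = 1.16e-07, edgeR). Kif23, at 58.8, 58.9 and 49.4 CPM, was also higher (1.67 ± 0.28), as were Kif20a and Cenpe. Mki67, at 177, 130 and 122 CPM, overlapped WT cecum and did not pass (0.44 ± 0.29, adjusted p = 0.211, edgeR).

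The 4 lower genes were all on the mitotic list. As 4 of 25 they were a smaller share than the 26.1% of all genes that were lower. By transcript length, 3 of the 4 were among the 15 shortest members. Pclaf had 20.2, 15.4 and 15.2 CPM against 27.1 to 42.0 CPM in WT cecum (-1.01 ± 0.19, adjusted p = 0.0002, edgeR). Spc24 had 4.68, 3.45 and 4.19 CPM against 5.84 to 9.49 CPM (-0.93 ± 0.23). Ankle1 had 4.49, 2.13 and 3.45 CPM against 4.69 to 6.09 CPM (-0.72 ± 0.24), and Birc5 13.8 to 19.7 CPM against 23.0 to 35.7 CPM (-0.69 ± 0.25). In these 4 genes no compound mutant library reached a WT library. None of the 4 was lower with equal pan-epithelial levels, where 5 replication and 4 mitotic genes were higher. The counts of higher genes were 6 and 3 without WT cecum replicate 1, 5 and 3 without replicate 2, and 12 and 15 without replicate 3, and the mitotic count was 4 without compound mutant replicate 1.

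Compound mutant cecum was also compared with the 6 Cdx2-/- cecum libraries, a comparison of groups with the same treatment whose labels differ in the Apc allele. Sex differs in part as well, since set 1 was female by Xist and Ddx3y and the compound mutant cecum libraries were male. A comparison with the male set 2 alone was not made. All 20 replication genes and 24 of 25 mitotic genes had lower estimates. After adjustment 8 replication genes were lower and none higher (median -0.63), and 13 mitotic genes were lower and none higher (median -0.78), beside 3.93% of all genes higher and 4.5% lower. By edgeR at an unadjusted p under 0.05, no member was higher, and DESeq2 called none higher, but shares of all genes at those settings are not given here. Pan-epithelial markers (8120 to 14416 CPM) lay within the range of the Cdx2-/- libraries, as did T cell markers except in compound mutant replicate 2 (7.05 CPM). Fibroblast markers, at 2414 to 2773 CPM, lay toward the top of the Cdx2-/- range (1478 to 2803 CPM), and myeloid markers, at 181 to 509 CPM, overlapped theirs (139 to 431 CPM).

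Among replication genes Mcm10 differed most. It had 11.1, 10.2 and 11 CPM in compound mutant cecum, under every Cdx2-/- library (15.5 to 28.6 CPM) and every WT cecum library (11.8 to 13.7 CPM), a fall of -0.91 ± 0.16 from Cdx2-/- cecum (adjusted p = 0.00431, edgeR). Rrm2 fell by 0.89, Cdc45, which activates the helicase, by 0.83 and Mcm3 by 0.77, and Tyms fell least of those called (-0.56 ± 0.14). None of the 5 synthesis genes passed, and Pole (-0.57 ± 0.31) and Mcm6 (-0.26 ± 0.27) did not. Rrm1, at 70.2, 61.0 and 54.3 CPM, overlapped the Cdx2-/- libraries (-0.43 ± 0.18), and so did Pcna, at 65.3, 54.1 and 47.4 CPM (-0.34 ± 0.14).

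Among mitotic genes Ankle1 differed most (-1.82 ± 0.22, adjusted p = 0.000221, edgeR), with every compound mutant library under every Cdx2-/- library (7.99 to 14.5 CPM). Spc24 fell by 1.29, Birc5 by 1.22, Aurka by 1.14, Ube2c by 1.08 and Pclaf by 0.90. Ccna2, at 36.7, 34.9 and 26.3 CPM, lay under all Cdx2-/- libraries (37.7 to 68.9 CPM) and fell least of those called (-0.77 ± 0.20, adjusted p = 0.0264, edgeR). Of the 5 genes of cyclins and of the ubiquitin ligase 4 fell, but none of the 4 motors. By transcript length, 11 of the 15 shortest members were lower, 6 of 15 in the middle and 4 of the 15 longest. All those 5 genes but Ccna2 are among the shortest and no motor is, so role and length cannot be told apart here. Plk1 was the single member with a higher estimate (0.12 ± 0.17, adjusted p = 0.702, edgeR).

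These calls rested on the libraries of a small group. Without compound mutant replicate 2, 1 replication and 6 mitotic genes were lower, and without replicate 3, 3 and 6. Leaving out set 1 replicate 2 or 3 or set 2 replicate 4 or 6 gave 4 replication genes. With equal pan-epithelial levels no replication gene and 3 mitotic genes were lower, although the medians were -0.64 and -0.82. Ankle1 was called under each alternative run. Of the other lists, 12 of 38 replication genes and 28 of 51 mitotic genes were lower and none higher, among them Cdca8 (-1.16), Cdca5 (-1.09), Cenpa (-1.03) and Spc25 (-1.01). E2f1 (-0.86), Foxm1 (-0.68), cyclin E1 (Ccne1, -0.79) and Cdkn2c (-0.91) were lower as well. Rb1 (0.23), Mybl2 (-0.56) and cyclin D1 (-0.46) did not pass.

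**Figure D4:**
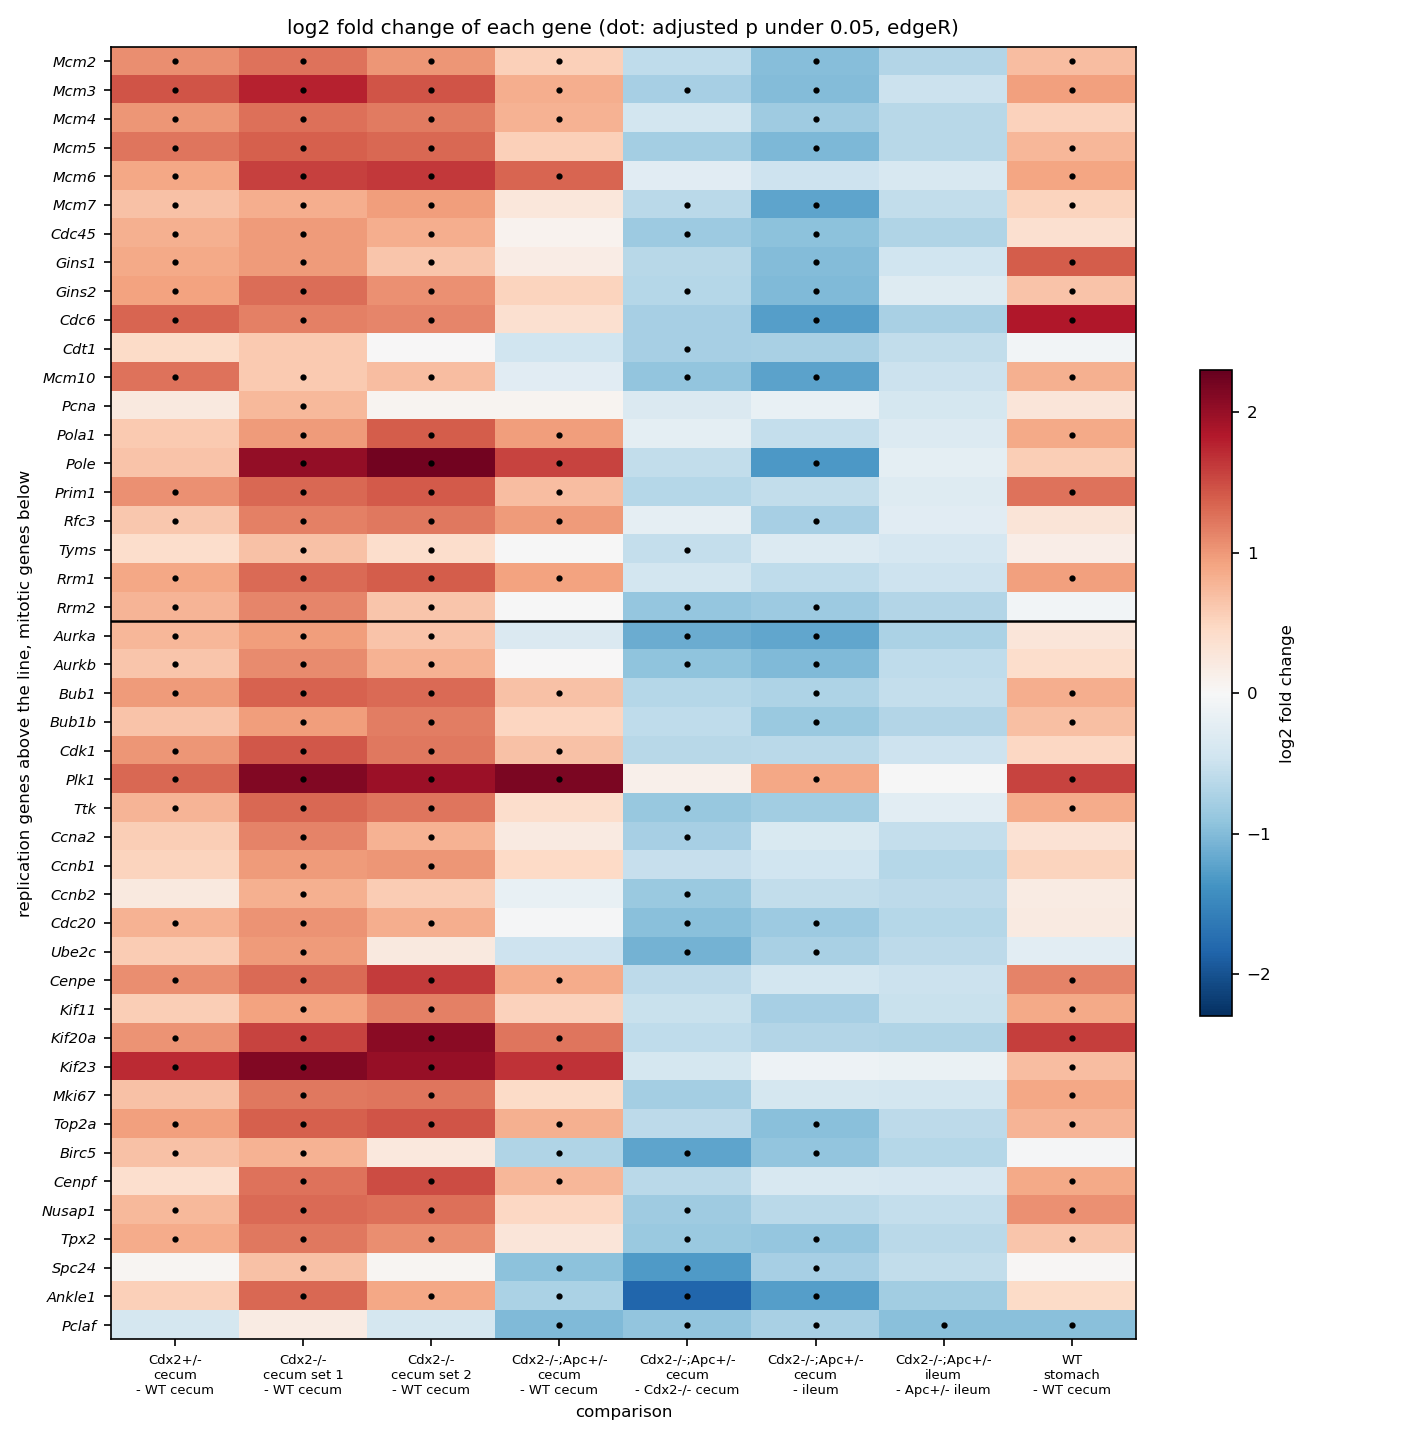
Log2 fold changes of the 45 members (rows, ordered by phase and role) in 8 comparisons (columns), with a dot where edgeR's adjusted p was under 0.05. The columns against WT cecum are mostly red (higher), with Pclaf as an exception in several, and the column of compound mutant against Cdx2-/- cecum is blue (lower) in all rows but Plk1.

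In the ileum the same genes had lower estimates in the compound mutant than in Apc+/- mice, but almost none passed. All 45 were negative, with medians of -0.48 for replication and -0.58 for mitosis. By edgeR no replication gene passed, and of the mitotic genes 1 did, Pclaf, beside 0.395% of all genes higher and 0.0488% lower. At an unadjusted p under 0.05 by edgeR, 12 replication genes were lower. By DESeq2 after adjustment, 1 replication and 3 mitotic genes were lower. Shares of all genes at an unadjusted p or by DESeq2 are not given here, so those counts are not set against other genes. Pclaf had 31.3, 25.9 and 27.7 CPM against 60.6, 37.7 and 67.7 CPM, without overlap (-0.97 ± 0.19, adjusted p = 0.0224, edgeR). It was not called without compound mutant ileum replicate 3, or without Apc+/- ileum replicate 1 or 3. Plk1 (-0.01 ± 0.19) and Kif23 (-0.15 ± 0.28) were nearest to 0. Mki67 had 231, 110 and 228 CPM against 189, 302 and 275 CPM, so that the lowest and the highest library were those with number 2 of each group. Without compound mutant ileum replicate 2, whose Cdx2 level goes against its label, the counts were again 0 and 1. Germinal centre and B cell markers were at 44.8 to 89.0 CPM in the compound mutant and 58.6 to 223 CPM in Apc+/- ileum, and their part in the values was not tested.

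Within the compound mutant, members were lower in cecum than in ileum, in 13 of 20 replication genes (median -0.89) and 12 of 25 mitotic genes (median -0.74), beside 6.6% of all genes higher and 9.59% lower. Of the 9 helicase genes 8 were lower. Pole had 48.3, 32.6 and 50.8 CPM in ileum and 12.6 to 20.7 CPM in cecum, the largest difference among replication genes (-1.32 ± 0.36), and Rfc3, at 25.9, 22.9 and 37.1 against 16.0 to 18.0 CPM, was the smallest called (-0.76 ± 0.21). Mcm10 was at 24.7, 22.7 and 28.2 CPM in ileum (-1.23 ± 0.18, adjusted p = 0.000439, edgeR). Ankle1 had 7.99, 7.30 and 8.83 CPM in ileum, above all compound mutant cecum libraries (-1.26 ± 0.24). Plk1 went the other way, with 98.4, 78.1 and 87.8 CPM in ileum and 139 to 186 CPM in cecum (0.88 ± 0.19, adjusted p = 0.00514, edgeR), and its groups did not overlap. Fitted on the 6 libraries alone, no member passed, although the medians were -0.87 and -0.71. The mitotic count was also 5 or 6 without cecum replicate 2 or 3 or ileum replicate 3 and 7 without ileum replicate 1, and the replication count 7 without cecum replicate 2. Without ileum replicate 2 the counts were 14 and 11.

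WT stomach also exceeded WT cecum. Of the replication genes 12 of 20 were higher and none lower (median 0.68), and of the mitotic genes 13 of 25 were higher and 1 lower (median 0.63), beside 22.1% of all genes higher and 21.6% lower. The loader Cdc6 was highest, at 18.0, 18.8 and 11.7 CPM against 3.36, 4.04 and 6.12 CPM (1.84 ± 0.28, adjusted p = 2.88e-05, edgeR), and Mcm7 the smallest called (0.52 ± 0.20). All 4 motors were higher, with Kif20a at 17.2, 19.2 and 21.3 CPM against 3.12 to 11.8 CPM (1.59 ± 0.36). None of the 5 genes of cyclins and of the ubiquitin ligase passed, in contrast to Cdx2-/- cecum, although the difference between these contrasts was not tested. By transcript length, 2 of the 15 shortest members were higher, 11 of 15 in the middle and 12 of the 15 longest. The part of length in the calls by role was not tested. Pclaf was the lower gene, at 17.5, 18.3 and 16.9 CPM (-0.96 ± 0.19, adjusted p = 0.000393, edgeR). Pole, at 7.81, 9.44 and 9.12 CPM, overlapped WT cecum (0.56 ± 0.36). The counts were 7 and 5 without WT cecum replicate 1, 6 and 4 without replicate 2 and 15 and 16 without replicate 3, and the mitotic count was 8 without stomach replicate 3. Scaling to the pan-epithelial list moved the median of all genes by 2.54 here and turned Pclaf to 1.54. Of the 12 genes on that list, 10 were above 1 CPM in all stomach libraries. The cause of the shift was not tested.

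Apc+/- ileum had the highest levels, against WT cecum, from which it differs in tissue as well as genotype, so that these cannot be told apart. All 20 replication genes (median 1.90) and 24 of 25 mitotic genes (median 1.57) were higher and none lower, beside 28.1% of all genes higher and 27.2% lower. Without WT cecum replicate 3 the counts stayed at 20 and 24, with medians of 2.26 and 1.97. Pole was at 48.8, 46.9 and 58.3 CPM against 2.70 to 10.9 CPM (3.10 ± 0.38, adjusted p = 1.98e-06, edgeR), the largest change of any member in any comparison made, and Pcna again the smallest called replication gene (0.63 ± 0.16). Kif20a, at 35.5, 32.4 and 47.9 CPM, led the mitotic genes (2.59 ± 0.37), and Top2a, at 312, 312 and 400 CPM against 39.4 to 106 CPM, followed (2.38 ± 0.27). Pclaf was higher here, by 0.70 ± 0.19 (adjusted p = 0.00396, edgeR), but its groups overlapped. Spc24 (0.38 ± 0.23) did not pass. Of the other lists 28 of 38 replication genes were higher and 2 lower, 47 of 51 mitotic genes were higher and none lower, and Mybl2 (2.72), Foxm1 (1.89), E2f7 (2.24) and E2f1 (1.33) were higher while Rb1 was lower (-1.48). Germinal centre and B cell markers, at 58.6 to 223 CPM, were above those of WT cecum (34.8 to 41.8 CPM), 9 of the 12 being higher, and smooth muscle markers, at 615 to 947 CPM, were below (1235 to 4105 CPM); their part in these values was not tested. All comparisons with WT cecum share its 3 libraries and are not independent of each other.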

How the data were processed

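RNA was extracted in Trizol and libraries were made with the TruSeq mRNA v2 kit, per the labels' protocols. CASAVA, TopHat2 2.0.11, HTSeq 0.5.3p3 and GRCm38 are named in the submitters' processing notes. No source used here gives the strand setting or gene annotation. The deposited files, 1 for each library, hold the authors' raw counts of reads by Ensembl gene. The 5 closing HTSeq entries were left out of library sizes. Relative to the gene reads and all closing entries together, no_feature came to 6.62 to 10.4%, ambiguous reads to 2.00 to 3.44% and reads aligned to several places to 17.3 to 30.0%.

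Counts of all 24 libraries were fitted with edgeR 4.0.16 (R 4.3.3, limma 3.58.1), using TMM factors, filterByExpr and 8 groups without a block, and tested with the quasi-likelihood test. All 45 members were among the 20502 genes tested. Calls were made where the p adjusted over all of them (Benjamini-Hochberg) was under 0.05. SE is the log2 fold change divided by the square root of F. Cdx2-/- was the mean of its sets. The 45 genes, the gene and marker lists and the promoters shown were chosen with earlier results of these data known. Values in every library are given for the member of each role with the highest mean CPM over all libraries, not scaled by length, and each comparison names the largest and smallest called change. Other named members were chosen after their values were seen. Of the pathway list 136 of 137 genes were matched by symbol.

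Alternatives were DESeq2 1.42.0, RLE factors, no filter on low counts, a fit of the compared groups alone, a replicate block (without set 2), set 1 replicates 2 and 3 as 1 library, scaling to 12 pan-epithelial genes and leaving out each library. Scaling to 7 broad epithelial genes and offsets for length and GC content (known for 98.53% of genes tested) were added after seeing the data. The scripts were tested on simulated data.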

Additional observations from a re-analysis of the deposited data

Results flagged for a closer look

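Cenpf, a kinetochore protein, had 1 of its 6 Cdx2-/- cecum libraries far from the others. Set 1 replicate 1 had 30.9 CPM and the others 49.8 to 57.0 CPM, and on the log2 CPM scale the gap to the nearest library was 0.779 of the whole range, above Dixon's critical value for 6 libraries. Each of the 45 members was tested in this way, and chance puts about 1 in 20 past that value.

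Pcna changed differently in the sets of Cdx2-/- cecum relative to the same WT libraries. The difference (set 2 minus set 1) was -0.69 ± 0.16 on the log2 scale (adjusted p = 0.0106, edgeR), with 3 of 3 set 2 libraries under 3 of 3 set 1 libraries. Sex, library codes and set cannot be told apart in this difference. Pcna was the only member called, beside 6.45% of all genes lower. It was not called without set 2 replicate 5 or under either epithelial scaling. Its transcript is short (1518 bases), and across the 45 members this difference had a Spearman correlation of 0.686 with transcript length.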

How the results depend on the processing

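Against 43 values that moved, 163 counts of called members stayed within 1.5 times the value reported when the processing changed, and leaving out 1 library moved 37 and kept 125. Counts follow as replication and mitotic genes, in the direction reported. In Cdx2-/- against WT cecum no alternative moved either count, and leaving out a library gave 18 to 20 and 20 to 23. Fitted on the compared groups alone, the counts were 9 and 8 in Cdx2+/- against WT cecum, 4 and 2 (2 lower) in compound mutant against WT cecum, 0 and 0 in its cecum against its ileum, 5 and 4 in stomach, 0 mitotic in compound mutant against Apc+/- ileum, and 12 mitotic in Cdx2-/- against Cdx2+/-. With pan-epithelial scaling they were 0 and 0 in Cdx2+/- against WT cecum, 18 and 25 in Cdx2-/- against Cdx2+/-, 5 and 4 in compound mutant against WT cecum, 0 and 3 against Cdx2-/- cecum, 1 and 0 in its cecum against its ileum, 0 mitotic against Apc+/- ileum, 20 and 25 in stomach, and 0 replication in set 2 against set 1. With broad epithelial scaling they were, in that order, 1 and 1, 18 and 25, 12 and 11, 0 and 3, 4 and 4, 0 mitotic, 19 and 24, and 0. Broad scaling moved the median of all genes by -0.42 in Cdx2+/- against WT cecum. The shift was 0.92 in Cdx2-/- against Cdx2+/-, 0.60 in compound mutant against WT cecum and 0.84 in stomach. Shares of all genes called are not given for the epithelial scalings or the other alternatives, so their counts are not set against other genes. Merging set 1 replicates 2 and 3 gave 4 replication genes in compound mutant against Cdx2-/- cecum and 2 in Cdx2-/- against Cdx2+/-, where no filter and length and GC offsets gave 2 too. Those offsets gave 4 mitotic genes in compound mutant against WT cecum. DESeq2 gave 12 and 16 in compound mutant against Cdx2-/- cecum, 5 mitotic in Cdx2-/- against Cdx2+/- and 3 mitotic in compound mutant against Apc+/- ileum. Leaving out a library gave 10 to 19 and 6 to 19 in Cdx2+/-, 1 to 4 and 2 to 4 in Cdx2-/- against Cdx2+/-, 5 to 12 and 3 to 15 in compound mutant against WT cecum, 1 to 10 and 6 to 15 against Cdx2-/- cecum, 0 to 1 mitotic against Apc+/- ileum, 7 to 14 and 5 to 11 in its cecum against its ileum, 6 to 15 and 4 to 16 in stomach, and 0 to 2 replication between sets. Of single members 555 values kept sign and call, 134 lost the call and 5 reversed: with pan-epithelial scaling Aurkb (-0.084) and Rfc3 (-0.060) in Cdx2+/-, Mcm10 in Cdx2-/- against Cdx2+/- (0.39, and 0.29 with broad scaling) and Pclaf in stomach (1.54). Apart from the scalings, the cause was not tested. The replicate numbers did not pair the libraries: 63 pairs with the same number correlated by -0.35 to 0.37 (median 0.03) and 189 others by -0.46 to 0.40 (median -0.02). With the number as a block and set 2 left out, the counts were 15 and 17 in Cdx2+/- against WT cecum, 9 and 9 in compound mutant against WT cecum, 14 and 12 in its cecum against its ileum, 13 and 13 in stomach, and 0 and 1 against Apc+/- ileum. Set 2 was left out because its numbers occur in no other group, so these counts mix the block with the loss of set 2. Each member had 92 reads or more in every library, and what depth or the number of libraries limits was not tested.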
